A study of Mus musculus with 4 samples.

Results

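Il6, Lif, Il11, Il33, Il1rl1, Tslp, Csf1 and Csf2 are 8 genes that encode cytokines of the IL-6 family, alarmins with an alarmin receptor, and colony-stimulating factors. They were chosen by gene symbol from the 32285 genes of the deposited matrix, and all 8 were found. The data come from mouse alveolospheres, in which lysotracker+ alveolar type 2 (AT2) cells, the surfactant-making progenitors of the alveolus, grow together with PDGFRα+ lung fibroblasts. In 2 YAP/TAZ KD libraries the AT2 cells were wildtype and YAP and TAZ were knocked down in the PDGFRα-expressing cells, with a construct that the labels do not name. In 2 control libraries the genotype was wildtype. Both groups were kept in MTEC/Plus medium, received 3 µg/ml doxycycline dissolved in DMSO from day 7, controls included, with collection at day 14. All 4 libraries carried the same batch date. Transcripts were counted as unique molecular identifiers (UMIs) in the RNA part of a joint RNA and chromatin assay of single cells.

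IL-6, LIF and IL-11 are secreted ligands that bind their own receptor chains and share the signalling chain gp130 (Il6st), which acts through JAK kinases and STAT3. IL-33 is a nuclear alarmin of the IL-1 family that is released from damaged cells and is sensed through ST2, the product of Il1rl1; TSLP is an epithelial and stromal alarmin that signals through Crlf2 and Il7r. CSF1 and CSF2 (GM-CSF) sustain macrophages, and in the lung GM-CSF is also known for the maturation of alveolar macrophages and for surfactant clearance.

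The YAP/TAZ KD libraries held 10545 and 6508 cells with 63758826 and 44284602 UMIs. The control libraries held 15000 and 13883 cells with 71523447 and 70525226 UMIs. Cells were deeper in YAP/TAZ KD, with medians of 4961 and 5946 UMIs, than in control, with medians of 3876 and 4142 UMIs. The median mitochondrial percent per cell, as deposited, was 24.6 and 17.8 in YAP/TAZ KD and 23.4 and 21.5 in control. Of 44852 distinct cell barcodes, 1073 occurred in more than 1 library. Cell classes were those of the authors' deposited annotation. Counts were summed per library over the fibroblast classes (7472 and 5123 YAP/TAZ KD cells, 12041 and 11480 control cells) and over the epithelial classes (2589 and 1274 YAP/TAZ KD cells, 2233 and 1749 control cells), and levels are given as CPM, a gene's UMIs scaled to a common total of all UMIs of the same cells. CPM are not corrected for gene length, so they are compared between libraries and classes and not between genes. The 8 fibroblast markers summed to 6599 and 6390 CPM in YAP/TAZ KD fibroblast cells and to 7328 and 9294 CPM in control fibroblast cells, and the 8 AT2 markers summed to 46880 and 34710 CPM in YAP/TAZ KD epithelial cells and to 24420 and 38580 CPM in control epithelial cells. In fibroblast cells, Yap1 was at 39.4 and 36.6 CPM in YAP/TAZ KD and at 63.2 and 64.8 CPM in control (log2 fold change -0.71 ± 0.11 SE, edgeR quasi-likelihood adjusted p = 0.00864), and Wwtr1, which encodes TAZ, was at 187 and 173 CPM in YAP/TAZ KD and 247 and 231 CPM in control without passing the threshold (log2 fold change -0.36 ± 0.13 SE, edgeR adjusted p = 0.115). In epithelial cells Wwtr1 was at 233 and 212 CPM in YAP/TAZ KD and at 321 and 271 CPM in control. Yap1 was at 87.9 and 94.2 CPM in YAP/TAZ KD epithelial cells and at 114 and 97.2 CPM in control epithelial cells. The lower Wwtr1 level was thus not particular to fibroblast cells. The labels call the libraries of a group biological replicates without naming separate animals or cultures, so each p-value measures the spread between libraries, which may be technical.

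The sequence just upstream of the gene is shown for Il6, Lif and Csf1, which fell in the fibroblast sum, and for Il33, which rose there. These values follow below. RefSeq windows on GRCm38.p6 ran from 250 bases before to 50 bases after an annotated start. For 7 of the 8 genes, all but Tslp, 10 windows were used. They were searched on both strands for GGGA and CC with any 4 bases between (NF-kB), TGANTCA (AP-1), TTGCNNAA (C/EBP) and GGAATG (TEAD, the DNA-binding partner of YAP and TAZ). Of 32851 promoter windows of the same length, 20.7% held the NF-kB letters, 7.81% the AP-1 letters, 10.8% the C/EBP letters and 14.7% the TEAD letters. Each window below reads 5′ to 3′ on the strand of its gene, with the matches in capitals; a match is a match of letters only.
Il6, chr5:30012864-30013163, plus strand: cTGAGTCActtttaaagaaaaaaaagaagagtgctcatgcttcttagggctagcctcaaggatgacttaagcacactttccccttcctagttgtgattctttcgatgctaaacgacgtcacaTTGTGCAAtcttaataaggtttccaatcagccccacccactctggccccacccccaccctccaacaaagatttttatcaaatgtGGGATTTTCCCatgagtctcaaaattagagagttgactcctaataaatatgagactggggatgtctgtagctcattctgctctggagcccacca
Lif, chr11:4257318-4257617, plus strand: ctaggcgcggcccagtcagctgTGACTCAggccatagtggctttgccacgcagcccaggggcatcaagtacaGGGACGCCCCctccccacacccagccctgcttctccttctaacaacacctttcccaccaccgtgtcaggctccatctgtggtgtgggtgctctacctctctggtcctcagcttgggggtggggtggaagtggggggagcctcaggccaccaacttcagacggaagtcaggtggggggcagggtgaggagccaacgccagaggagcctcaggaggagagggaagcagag
Csf1, chr3:107760420-107760719, minus strand: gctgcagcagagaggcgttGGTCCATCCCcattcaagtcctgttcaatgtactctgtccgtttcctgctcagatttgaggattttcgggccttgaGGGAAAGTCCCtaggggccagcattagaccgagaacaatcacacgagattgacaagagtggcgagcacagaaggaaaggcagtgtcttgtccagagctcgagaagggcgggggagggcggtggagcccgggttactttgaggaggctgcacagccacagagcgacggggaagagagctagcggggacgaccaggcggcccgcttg
Il33, chr19:29924863-29925162, plus strand: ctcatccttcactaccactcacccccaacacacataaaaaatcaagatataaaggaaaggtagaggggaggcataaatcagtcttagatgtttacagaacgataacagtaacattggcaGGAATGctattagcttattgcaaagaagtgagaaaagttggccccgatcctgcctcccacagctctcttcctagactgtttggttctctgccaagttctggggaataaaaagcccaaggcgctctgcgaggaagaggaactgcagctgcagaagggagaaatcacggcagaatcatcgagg
Il33 second start, chr19:29945540-29945839, plus strand: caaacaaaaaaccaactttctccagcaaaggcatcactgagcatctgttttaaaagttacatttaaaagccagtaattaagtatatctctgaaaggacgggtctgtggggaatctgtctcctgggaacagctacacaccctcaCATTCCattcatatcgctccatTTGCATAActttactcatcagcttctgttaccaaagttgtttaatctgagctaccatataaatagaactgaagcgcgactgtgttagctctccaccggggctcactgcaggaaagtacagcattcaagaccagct
The Il6 window held an AP-1 match near its 5′ end, a C/EBP match, and a pair of overlapping NF-kB matches, 1 on each strand, close to the start. The Lif window held 1 AP-1 and 1 NF-kB match, and the Csf1 window held 3 NF-kB matches, 2 of them overlapping. The Il33 windows held no NF-kB or AP-1 match; each held 1 TEAD match, and the second also held 1 C/EBP match. Among the windows not printed, 1 of the 2 for Il11 held 1 AP-1 match and the other none of the 4 motifs. Il1rl1 also fell in the fibroblast sum, and its 2 windows held 1 C/EBP and 1 TEAD match and no NF-kB or AP-1 match. Csf2 rose there, and its window held 1 NF-kB, 1 TEAD and 1 C/EBP match. Matches thus did not divide by the direction of change.

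In the fibroblast sum, 7 of the 8 genes passed the test between YAP/TAZ KD and control, against 10.6% of all 17481 genes tested. Il6, Lif, Il1rl1, Tslp and Csf1 fell, where 6.22% of all genes fell; Il33 and Csf2 rose, where 4.42% rose; and Il11 did not pass. The median log2 fold change of the 8 genes was -0.64, and that of all genes tested was 0.01. All 8 genes passed the filter on low counts in both compartments.

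Il6, which encodes the ligand that gives the family its name (chr5:30013114-30019981, plus strand, GRCm38 with GENCODE annotation, as are the positions below), was at 47.1 and 50.8 CPM in YAP/TAZ KD fibroblast cells and at 73.1 and 86.8 CPM in control fibroblast cells. Both YAP/TAZ KD libraries lay below both control libraries, with a log2 fold change of -0.67 ± 0.13 SE (edgeR adjusted p = 0.0165). The call did not survive leaving out YAP/TAZ KD replicate 1 (adjusted p = 0.0656) or YAP/TAZ KD replicate 2 (adjusted p = 0.0582). Lif (chr11:4257557-4272514, plus strand), which encodes the ligand of the Lifr and gp130 pair and is known as a tissue-protective factor in the injured lung, was at 39.4 and 43.7 CPM in YAP/TAZ KD and at 70.5 and 82.7 CPM in control. The groups did not overlap, and Lif fell by 0.84 ± 0.12 SE on the log2 scale (edgeR adjusted p = 0.00704), a call kept in each fit that left out 1 library. Il11 (chr7:4772373-4782859, minus strand), which encodes a ligand known for its part in fibroblast activation, was at 61.3 and 73.7 CPM in YAP/TAZ KD and at 78.0 and 90.4 CPM in control. The libraries did not overlap, but the difference did not pass the threshold (log2 fold change -0.28 ± 0.13 SE, edgeR adjusted p = 0.203).

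Il33 (chr19:29925114-29960718, plus strand) was higher in YAP/TAZ KD. It was at 86.9 and 112 CPM in YAP/TAZ KD fibroblast cells and at 55.8 and 60.5 CPM in control fibroblast cells. Both YAP/TAZ KD libraries lay above both controls, and Il33 rose with a log2 fold change of 0.81 ± 0.13 SE (edgeR adjusted p = 0.0107), also in each fit that left out 1 library. AT2 cells express Il33 too, and the 8 AT2 markers summed to 2236 and 1165 CPM in YAP/TAZ KD fibroblast cells, against 811 and 867 CPM in control fibroblast cells, with 3 of the 8 called higher and none of them at 0. These sums were 4.77% and 3.36% of the epithelial level in YAP/TAZ KD and 3.32% and 2.25% in control. At those shares the epithelial Il33 level would come to 4.58 and 2.81 CPM in YAP/TAZ KD and to 2.04 and 1.88 CPM in control, below the measured values. The 5 endothelial markers were also higher in fibroblast cells, summing to 9.89 and 11.2 CPM in YAP/TAZ KD and to 5.32 and 4.51 CPM in control with none at 0; Kdr and Emcn were called higher. In Inflammatory Fibroblasts-2 they summed to 19.6 and 18.3 CPM in YAP/TAZ KD and to 5.52 and 6.28 CPM in control. Their part in the Il33 values was not tested.

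Il1rl1 (chr1:40429570-40465415, plus strand), whose product ST2 is the receptor of IL-33, had the most negative fold change of the 8 genes. It was at 15.3 and 23.9 CPM in YAP/TAZ KD and at 45.6 and 54.3 CPM in control, with no overlap and a log2 fold change of -1.32 ± 0.19 SE (edgeR adjusted p = 0.00695). The call was kept in each fit that left out 1 library. ST2 is also carried by mast cells and by lymphoid cells. The 6 mast cell and basophil markers summed to 1.79 and 2.50 CPM in YAP/TAZ KD and to 6.87 and 6.64 CPM in control fibroblasts. Fcer1a was at 0 in the 4 libraries, and of 2 markers tested Mcpt8 was called lower. In Inflammatory Fibroblasts-2 these 6 markers summed to 4.36 and 1.92 CPM in YAP/TAZ KD and to 18.7 and 16.5 CPM in control. In the fibroblast sum the 7 lymphoid markers were at 1.96 and 1.97 CPM in YAP/TAZ KD and 2.01 and 1.70 CPM in control. Cd3e and Cd3g were at 0. The part of both lists in the Il1rl1 values was not tested.

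Tslp, which encodes the other alarmin, rests on few UMIs, with 188 and 152 UMIs in YAP/TAZ KD fibroblast cells and 371 and 411 UMIs in control fibroblast cells. That was 4.61 and 4.53 CPM in YAP/TAZ KD against 6.86 and 7.50 CPM in control, and Tslp fell by 0.61 ± 0.14 SE on the log2 scale (edgeR adjusted p = 0.0360). The groups did not overlap, but the adjusted p was 0.0823 without YAP/TAZ KD replicate 1, 0.154 without YAP/TAZ KD replicate 2 and 0.0523 without control replicate 2. The 5 basal epithelial markers were also lower in fibroblast cells, summing to 1.33 and 1.79 CPM in YAP/TAZ KD and to 22.5 and 17.9 CPM in control, with 5 of 5 called lower. The 5 airway secretory markers differed between single libraries, summing to 1.13 and 259 CPM in YAP/TAZ KD and to 1350 and 279.9 CPM in control, and none was called. The part of both lists in the Tslp values was not tested.

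Csf1 (chr3:107741048-107760469, minus strand), which encodes the growth factor of the macrophage lineage, was at 32.3 and 47.8 CPM in YAP/TAZ KD fibroblast cells and at 71.5 and 82.9 CPM in control fibroblast cells. The YAP/TAZ KD libraries were both lower, and Csf1 fell by 0.91 ± 0.17 SE on the log2 scale (edgeR adjusted p = 0.0179; 0.0502 without YAP/TAZ KD replicate 1). Csf2 (chr11:54247271-54249667, minus strand) was barely detected in fibroblast cells, with 12 and 18 UMIs in YAP/TAZ KD and 7 and 5 UMIs in control, which is 0.294 and 0.536 CPM in YAP/TAZ KD and 0.129 and 0.0912 CPM in control. It passed the threshold narrowly, with a log2 fold change of 1.90 ± 0.50 SE (edgeR adjusted p = 0.0490), and not without YAP/TAZ KD replicate 1 (0.0642), without YAP/TAZ KD replicate 2 (0.333), without control replicate 2 (0.0668), without the filter on low counts (0.0599) or with limma voom (0.0518). DESeq2 gave it no adjusted p. At the AT2 marker shares given above, Csf2 carried over from epithelial cells would come to 0.110 and 0.166 CPM in YAP/TAZ KD fibroblast cells and to 0.0157 and 0.0342 CPM in control fibroblast cells. The 8 myeloid markers summed to 51.5 and 37.1 CPM in YAP/TAZ KD fibroblast cells and to 16.9 and 16.0 CPM in control fibroblast cells. None was at 0, and Tyrobp, Lyz2, Fcer1g, C1qa and Ptprc were called higher. Csf1r, the gene of the CSF1 receptor and also 1 of the 8, went the other way without being called. It was at 2.36 and 2.32 CPM in YAP/TAZ KD and at 3.03 and 3.37 CPM in control. Lyz2 is also among the 10 genes by which AT2 cluster 9 stands out. In that cluster the list summed to 562 and 554 CPM in YAP/TAZ KD and to 457 and 592 CPM in control. The list is thus no measure of myeloid cells alone. Its part in the values of Csf1 and Csf2 was not tested.

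**Figure D1:**
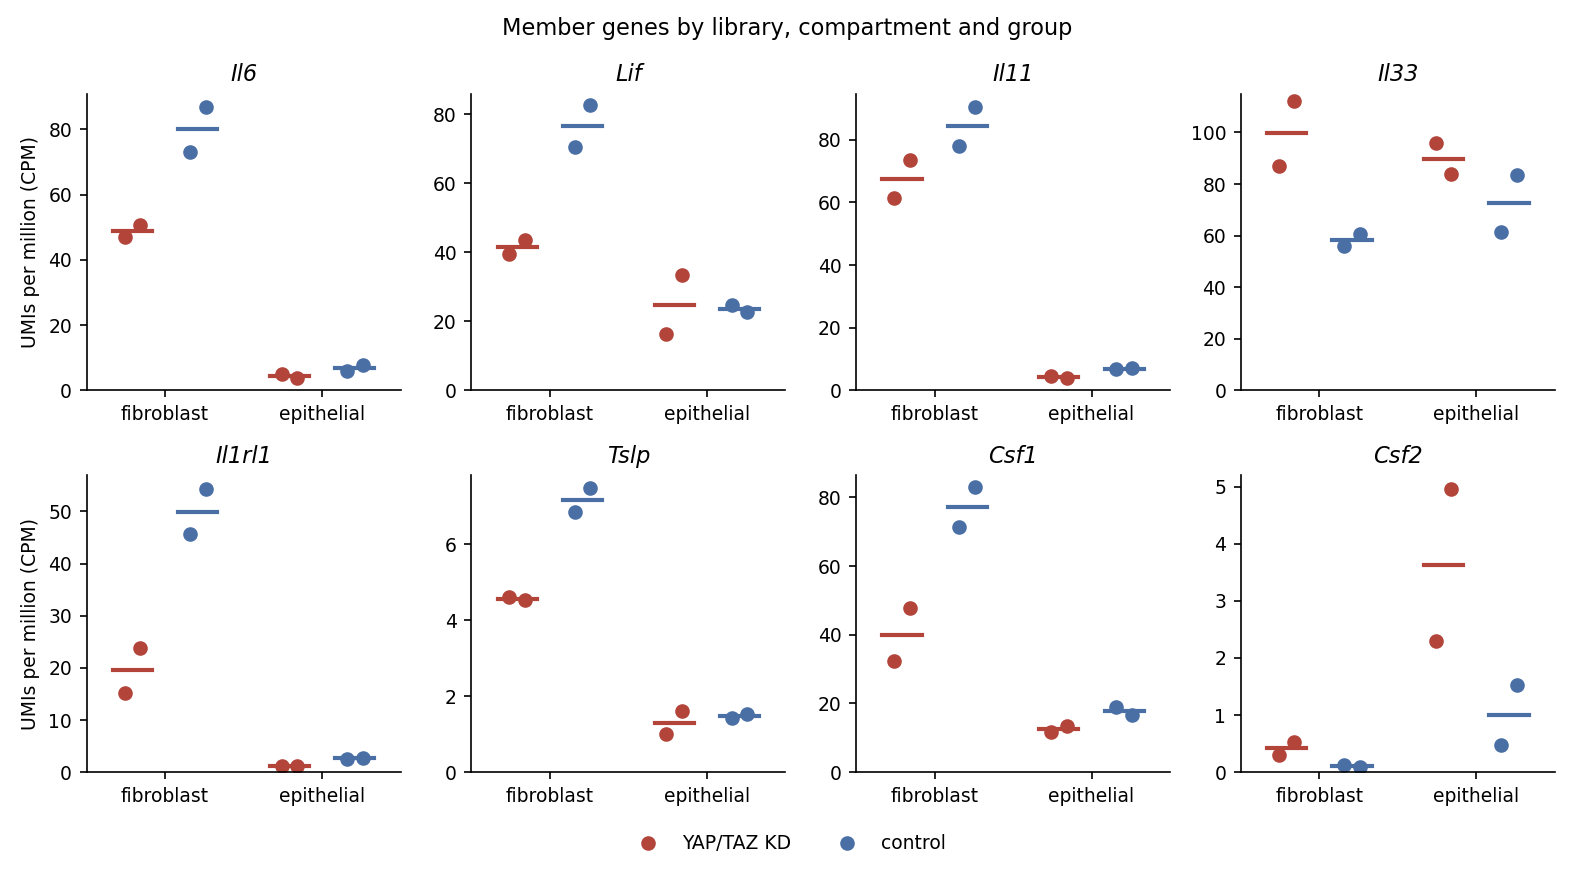
Level of each of the 8 genes in CPM by compartment, with 1 point per library, YAP/TAZ KD left of control, and a bar at the mean of 2 libraries. In fibroblast cells the YAP/TAZ KD points lie below the control points for Il6, Lif, Il11, Il1rl1, Tslp and Csf1 and above them for Il33 and Csf2, and the axis of Csf2 ends near 5 CPM.

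Fewer cells of a type and less RNA per cell cannot be told apart in a sum over a compartment, and the fibroblast classes were present in different shares. The 2 inflammatory fibroblast classes together made up 5.31% and 6.23% of fibroblast cells in YAP/TAZ KD and 17.97% and 19.62% in control. Wnt4+ Fibroblasts were 18.2% and 19.0% of fibroblast cells in YAP/TAZ KD and 0.0581% and 0.279% in control, and Tgfbi+ Fibroblasts were 12.5% and 7.89% in YAP/TAZ KD and 0.0415% and 0.331% in control. In YAP/TAZ KD, the Wnt4+ class held Il6 at 19.5 and 18.4 CPM, Lif at 15.9 and 14.7 CPM and Csf1 at 15.5 and 22.1 CPM. Those levels are low beside the 2 inflammatory classes, where Csf1 was between 81.4 and 212 CPM in YAP/TAZ KD and between 94.5 and 234 CPM in control. The inflammatory classes carried 27.0% and 35.7% of the fibroblast Csf1 UMIs in YAP/TAZ KD and 46.2% and 52.2% in control.

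When each fibroblast class with at least 50 cells in every library was given the same weight in all 4 libraries, which leaves out SMC, Tgfbi+ Fibroblasts and Wnt4+ Fibroblasts, 2 of the 8 genes passed, against 5.83% of all genes tested. Il33 (log2 fold change 1.01, edgeR adjusted p = 0.00527) and Csf2 (2.31, adjusted p = 0.0421) were higher in YAP/TAZ KD. The Csf2 value rests on few UMIs, such as 2 and 6 in YAP/TAZ KD and 1 and 1 in control in Inflammatory Fibroblasts-2. The weights rescaled such counts and rounded them to whole numbers. The other 6 no longer passed, with log2 fold changes of -0.31 for Il6 (adjusted p = 0.208), -0.47 for Lif (0.0764), -0.15 for Il11, -0.29 for Il1rl1 (0.465), -0.60 for Tslp (0.0569) and -0.22 for Csf1 (0.435). In the same classes summed without the weights, Lif, Il33, Il1rl1 and Csf1 passed, with log2 fold changes of -0.70, 0.98, -1.15 and -0.76, against 8.8% of all genes tested.

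Weights set per cluster, over the 13 fibroblast clusters with at least 20 cells in every library, were added after the data had been seen. Left out were SMC, Tgfbi+ Fibroblasts, Wnt4+ Fibroblasts, cluster 33 of EMT-like cells and clusters 5 and 18 of the Fibroblasts class. Cluster 5 held 65.38% of the YAP/TAZ KD cells and 0.98% of the control cells of its class. The cluster weights left only Il33 past the threshold (log2 fold change 0.89, edgeR adjusted p = 0.00641), against 2.53% of all genes tested. The log2 fold changes of the genes that had fallen lay between -0.25 for Lif and Tslp and -0.14 for Il1rl1, that of Il11 was 0.05, and that of Csf2 was 2.21 (adjusted p = 0.128). The size of the Il33 difference was about the same in the 3 weightings, while those of Il6, Lif, Il1rl1 and Csf1 were smaller with equal weights than in the plain sum. The 3 weightings do not cover the same cells.

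**Figure D2:**
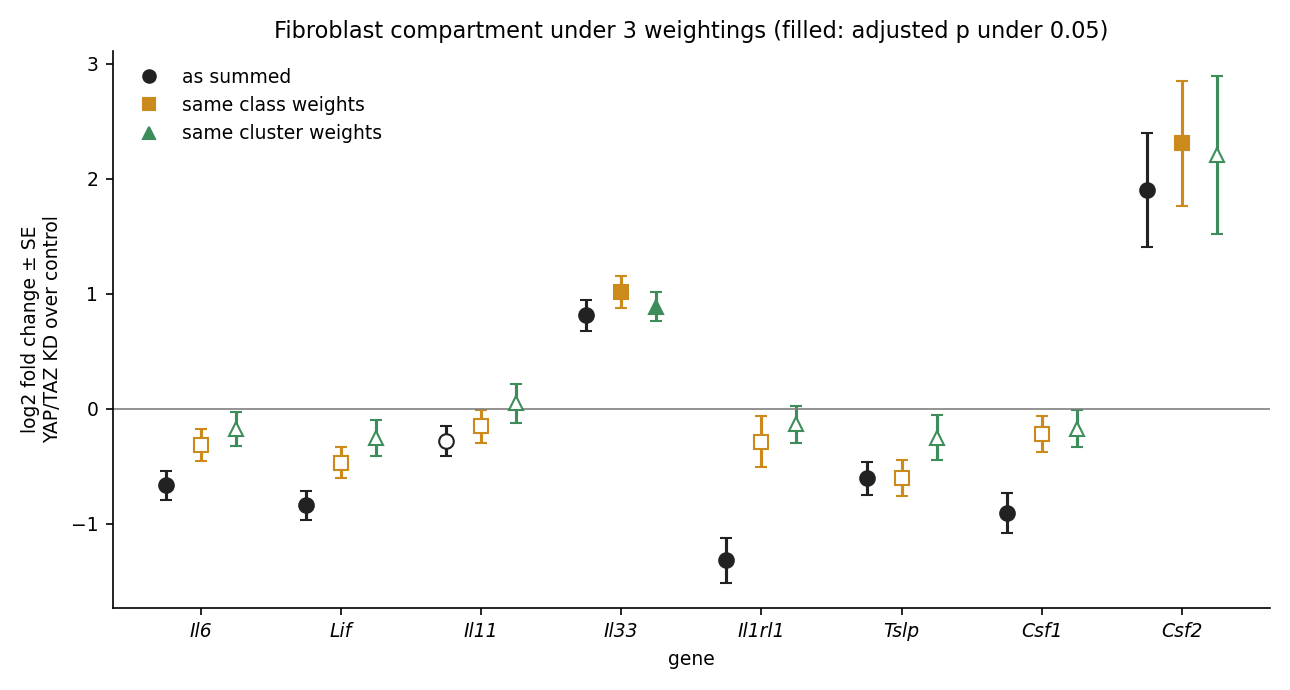
Log2 fold change of YAP/TAZ KD over control with its SE for each gene in the fibroblast compartment, as summed, with the same weight per class and with the same weight per cluster in every library; filled symbols have an edgeR adjusted p under 0.05. Il33 is filled under the 3 weightings, at 0.81, 1.01 and 0.89, and Il1rl1 lies at -1.32, -0.29 and -0.14. The weighted fits leave out the classes and clusters named above.

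The class in which a transcript was most abundant differed between the genes. The order is that among the 12 tested classes, those with at least 50 cells in every library, and smaller classes could stand higher; classes come from the authors' clustering of the same cells, so these levels are a description. Il6 was highest in Inflammatory Fibroblasts-2, at 86.5 and 189 CPM in YAP/TAZ KD and 133 and 185 CPM in control, and next in EMT-like cells, at 99.8 and 117 CPM in YAP/TAZ KD and 130 and 165 CPM in control. The libraries of these 2 classes overlapped in both groups. Il11 was highest in EMT-like cells, at 133 and 160 CPM in YAP/TAZ KD and 166 and 195 CPM in control, above the libraries of every other tested class of the same group. EMT-like cells held 41.9% and 34.7% of the fibroblast Il11 UMIs in YAP/TAZ KD and 40.1% and 29.3% in control, with 19.3% and 16.0% of all fibroblast UMIs in YAP/TAZ KD and 18.8% and 13.6% in control.

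Lif was highest in the 2 inflammatory classes and in EMT-like cells, whose YAP/TAZ KD libraries overlapped, and the tested epithelial class with the highest Lif level was Transitional epithelial cells, at 33.1 and 53.4 CPM in YAP/TAZ KD and 36.8 and 34.5 CPM in control. AT2 cluster 32, too small to be tested, held Lif at 82.9 and 84.3 CPM in YAP/TAZ KD and 43.9 and 33.3 CPM in control. It is AT2 by the deposited class, with 17.7% of the AT2 marker level of cluster 9. The airway secretory gene Scgb1a1 was among the 10 genes by which it stands out. AT2 cluster 14 held 20.8% of that level, and the alveolar type 1 markers Clic5, Hopx, Col4a3 and Rtkn2 were among its 10 genes. Il1rl1 and Csf1 were both highest in Inflammatory Fibroblasts-2. There Il1rl1 was at 117 and 290 CPM in YAP/TAZ KD and 203 and 235 CPM in control, and Csf1 at 170 and 212 CPM in YAP/TAZ KD and 211 and 234 CPM in control. Neither gene's groups were separate in that class. For Il1rl1 the next class was Cycling Fibroblasts, at 35.4 and 92.3 CPM in YAP/TAZ KD and 74.3 and 85.7 CPM in control, below Inflammatory Fibroblasts-2 in each group.

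In control libraries Il33 was highest in an epithelial class. AT2 cluster 9 held it at 158 and 184 CPM in YAP/TAZ KD and at 151 and 186 CPM in control, and in control this lay above the libraries of every other tested class. In YAP/TAZ KD, Inflammatory Fibroblasts-2, at 177 and 219 CPM, overlapped with AT2 cluster 9 and stood first by its mean; in control that class was at 86.4 and 97.1 CPM. Among tested classes Tslp was highest by mean in the Fibroblasts class, at 5.67 and 5.35 CPM in YAP/TAZ KD and 9.29 and 8.75 CPM in control; in the untested SMC class it was at 9.28 and 0 CPM in YAP/TAZ KD and 9.70 and 16.8 CPM in control. Among tested classes Csf2 was highest by mean in Transitional epithelial cells, with 15 and 28 UMIs in YAP/TAZ KD and 2 and 7 UMIs in control. AT2 cluster 32 held 2 and 5 Csf2 UMIs in YAP/TAZ KD and none in control.

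Il33 rose in 7 of the 8 fibroblast classes that could be tested, with log2 fold changes between 0.76 in EMT-like cells and 1.25 in Myo1f+ Fibroblasts. Of all genes tested, 8.23% were called in the Fibroblasts class, 7.33% in Myofib-like cells, 6.24% in EMT-like cells, 2.56% in Inflammatory Fibroblasts-2, 2.53% in Inflammatory Fibroblasts-1, 2.48% in Myo1f+ Fibroblasts and 2.31% in Cycling Fibroblasts. In the Fibroblasts class, Il33 was at 98.0 and 148 CPM in YAP/TAZ KD and at 53.7 and 63.1 CPM in control (log2 fold change 1.11 ± 0.17 SE, edgeR adjusted p = 0.00238). In Myofib-like cells it was at 70.4 and 76.0 CPM in YAP/TAZ KD and at 32.5 and 39.7 CPM in control (1.08 ± 0.16 SE, adjusted p = 0.000388). In Unknown Mesenchymal cells, where 1.31% of genes were called, Il33 did not pass (log2 fold change 0.70, adjusted p = 0.557). The groups did not overlap in any of the 7 classes with a call. The calls in Cycling Fibroblasts and EMT-like cells did not survive leaving out 1 library: the adjusted p was 0.476 without YAP/TAZ KD replicate 1 and 0.740 without YAP/TAZ KD replicate 2 in Cycling Fibroblasts, and 0.0864 without YAP/TAZ KD replicate 2 in EMT-like cells. Without the filter on low counts Il33 did not pass in Cycling Fibroblasts (0.614), Myofib-like cells (0.191) or the Fibroblasts class (0.0665).

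Within the Fibroblasts class the clusters also differed in share. Cluster 5 held 65.38% of the YAP/TAZ KD cells and 0.98% of the control cells of the class, and cluster 0 held 2.29% of the YAP/TAZ KD cells and 52.64% of the control cells. In cluster 8, which both groups filled with at least 347 cells per library, Il33 was at 79.3 and 123 CPM in YAP/TAZ KD and at 57.5 and 60.5 CPM in control, and in cluster 11 at 44.6 and 31.4 CPM in YAP/TAZ KD and 29.7 and 29.3 CPM in control. The groups were apart in these 2 clusters and overlapped in the other 3 clusters of the class.

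Il1rl1 fell in 3 of the 6 fibroblast classes where it passed the filter. In the Fibroblasts class it was at 9.74 and 12.8 CPM in YAP/TAZ KD and at 22.0 and 23.7 CPM in control (log2 fold change -0.98 ± 0.16 SE, edgeR adjusted p = 0.00377). The fold changes in EMT-like cells (-1.30, adjusted p = 0.0110) and Inflammatory Fibroblasts-1 (-1.73, adjusted p = 0.0251) rest on fewer UMIs. In Inflammatory Fibroblasts-1 these were 1 and 17 UMIs in YAP/TAZ KD and 90 and 122 UMIs in control. Without YAP/TAZ KD replicate 1 the adjusted p was 0.0510 in EMT-like cells and 0.135 in Inflammatory Fibroblasts-1, where the log2 fold change was -0.97, and it was -4.63 without YAP/TAZ KD replicate 2. In Inflammatory Fibroblasts-2, the class with the most Il1rl1, the log2 fold change was -0.12 (adjusted p = 0.890).

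In the Fibroblasts class, where 8.23% of all genes were called, 5 of the 7 genes tested passed. Besides Il33 and Il1rl1 these were Lif, at 24.3 and 26.8 CPM in YAP/TAZ KD and 46.3 and 51.4 CPM in control (log2 fold change -0.89 ± 0.13 SE, edgeR adjusted p = 0.00201), and Il6, at 33.4 and 36.8 CPM in YAP/TAZ KD and 53.9 and 62.2 CPM in control (-0.68 ± 0.13 SE, adjusted p = 0.0100). Tslp fell by 0.66 ± 0.18 SE (adjusted p = 0.0487; 0.210 without YAP/TAZ KD replicate 2 and 0.119 without control replicate 1). For each of these 3 genes both YAP/TAZ KD libraries lay below both control libraries of the class. Without the filter on low counts 254 genes were called in this class, and Il6 (0.0701) and Tslp (0.116) were not among them. Csf2 did not pass the filter in any fibroblast class.

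In Myofib-like cells, where 7.33% of all genes were called, Lif fell and Il11 rose. Lif was at 27.4 and 20.8 CPM in YAP/TAZ KD and at 46.6 and 55.5 CPM in control (log2 fold change -1.01 ± 0.19 SE, edgeR adjusted p = 0.00260). Il11 was at 98.1 and 81.1 CPM in YAP/TAZ KD and at 48.6 and 57.9 CPM in control (0.82 ± 0.16 SE, adjusted p = 0.00477), the only class call in which a ligand of the IL-6 family was higher in YAP/TAZ KD. Csf1 was at 36.6 and 39.9 CPM in YAP/TAZ KD and at 51.7 and 68.1 CPM in control (-0.59 ± 0.17 SE, adjusted p = 0.0472; between 0.139 and 0.226 without either YAP/TAZ KD library or without control replicate 2). Il6 was at 67.5 and 39.2 CPM in YAP/TAZ KD and 40.1 and 35.0 CPM in control, with overlap. Without the filter on low counts no gene was called in Myofib-like cells by edgeR, where 2508 were past an unadjusted p of 0.05, Lif (adjusted p = 0.246), Il11 (0.259) and Csf1 (0.361) among them.

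**Figure D3:**
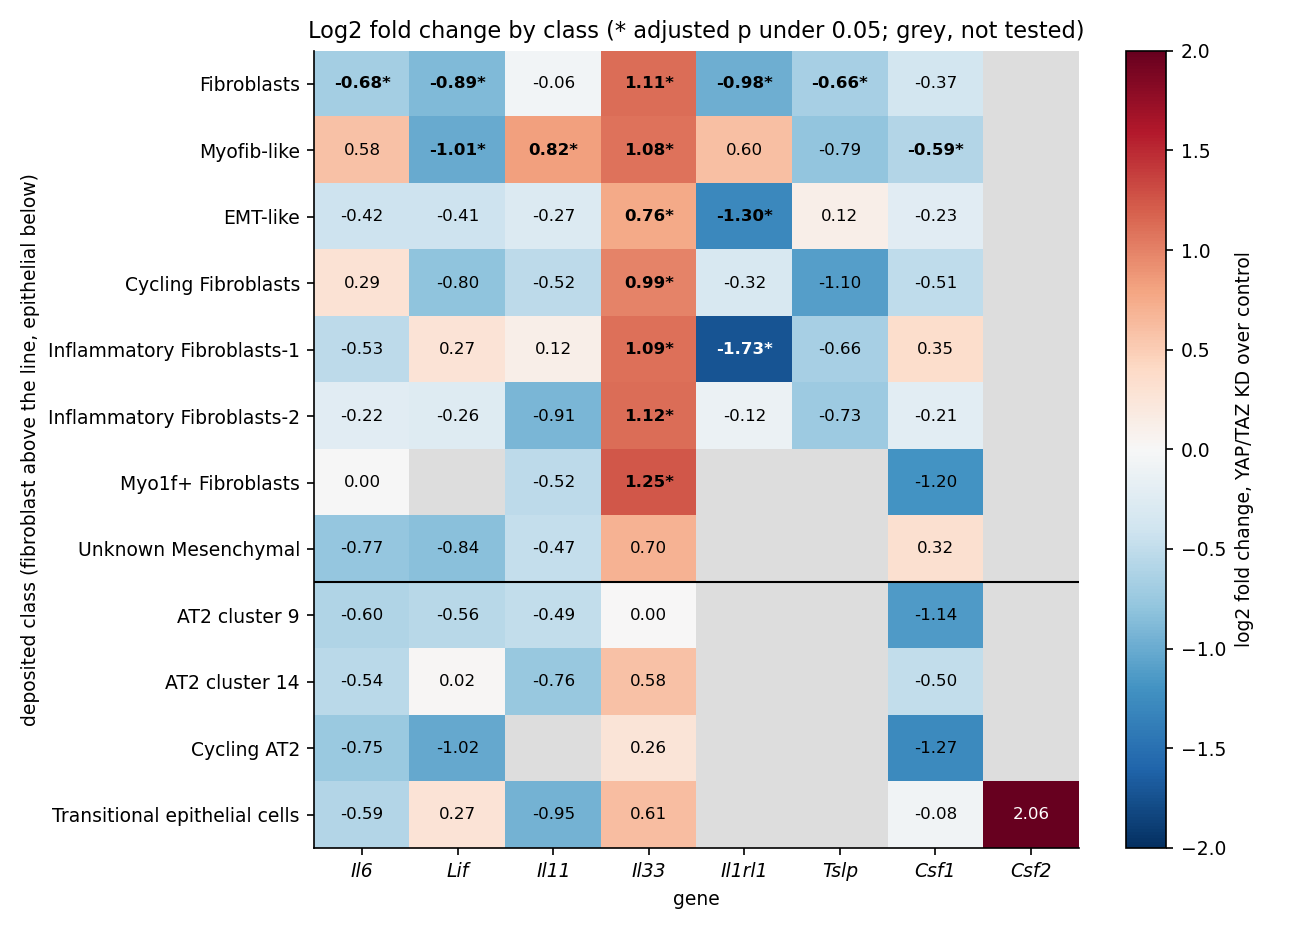
Log2 fold change of YAP/TAZ KD over control for the 8 genes (columns) in the 12 tested classes (rows, fibroblast classes above the line and epithelial classes below it); stars mark an edgeR adjusted p under 0.05, and grey cells did not pass the filter on low counts. The Il33 column is starred in 7 of 8 fibroblast classes and in none of the 4 epithelial classes.

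The Myofib-like class is made of clusters 4 and 15, which held 87.41% and 12.59% of its cells in YAP/TAZ KD and 57.79% and 42.21% in control. Il11 was higher in YAP/TAZ KD in both: at 58.5 and 78.1 CPM in YAP/TAZ KD and 39.3 and 47.2 CPM in control in cluster 4, and at 285 and 112 CPM in YAP/TAZ KD and 57.3 and 71.0 CPM in control in cluster 15. Il1rl1 in cluster 15 was at 270 and 173 CPM in YAP/TAZ KD and at 41.6 and 48.6 CPM in control, the opposite order to that in the fibroblast sum. In cluster 4 it was at 2.30 and 4.11 CPM in YAP/TAZ KD and 3.38 and 4.77 CPM in control, with overlap. Il6 in cluster 15 was at 55.8 and 46.3 CPM in YAP/TAZ KD and at 21.1 and 29.2 CPM in control. The cluster 15 values rest on 99 and 39 YAP/TAZ KD cells and on 703 and 594 control cells, and were not tested.

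In tests of the difference of 2 fold changes, chosen after the class values had been seen, Il6, Il11 and Il1rl1 had more positive fold changes in Myofib-like cells than in the Fibroblasts class, by 1.26, 0.91 and 1.57 on the log2 scale, against 4.64% of all genes. Against all other fibroblast cells the same 3 of the 8 genes differed, by 1.37, 1.23 and 2.17, against 6.37% of all genes. Without YAP/TAZ KD replicate 1 the first of these tests was passed by Il6 (0.77) and not by Il11 (0.36) or Il1rl1 (0.56), and the Il1rl1 difference from all other fibroblast cells was 0.83. Without YAP/TAZ KD replicate 2 the difference from the Fibroblasts class was 1.55 for Il11 and 2.31 for Il1rl1, and that of Il1rl1 from all other fibroblast cells was 3.17. Clusters and classes on both sides of these tests were present in different shares in the groups, as given above. The part of these shares in the differences was not tested.

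Cluster 29, part of Inflammatory Fibroblasts-2, held a large part of all Il1rl1 transcripts. It had 23 and 26 YAP/TAZ KD cells and 144 and 202 control cells. These cells contributed 0.391% and 0.611% of all UMIs in YAP/TAZ KD and 1.43% and 2.03% in control, but 20.5% and 35.5% of all Il1rl1 UMIs in YAP/TAZ KD and 31.0% and 39.4% in control. Il1rl1 in cluster 29 was at 558 and 1075 CPM in YAP/TAZ KD and at 818 and 888 CPM in control, with overlap. Csf1 was at 546 and 377 CPM in YAP/TAZ KD and at 490 and 494 CPM in control, and Lif at 253 and 469 CPM in YAP/TAZ KD and at 314 and 335 CPM in control, also with overlap. Il1rl1 and Csf1 are themselves among the 10 genes by which this cluster stands out, so their levels against other clusters describe the clustering.

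With cluster 29 left out, an alternative chosen after seeing the data, Il1rl1 (log2 fold change -1.16) and Csf1 (-0.83) still fell in the fibroblast sum, and Tslp (adjusted p = 0.0584) and Csf2 (0.0865) no longer passed, against 10.2% of all genes tested. In cluster 10, the other cluster of Inflammatory Fibroblasts-2, Il1rl1 was at 19.5 and 14.3 CPM in YAP/TAZ KD and at 79.7 and 56.8 CPM in control. In that cluster the groups did not overlap. The 4 mesothelial markers, 1 of which is Wt1, summed to 13.0 and 11.1 CPM in YAP/TAZ KD fibroblast cells and to 44.5 and 35.8 CPM in control fibroblast cells, with none at 0; their part in the Il1rl1 values was not tested.

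**Figure D4:**
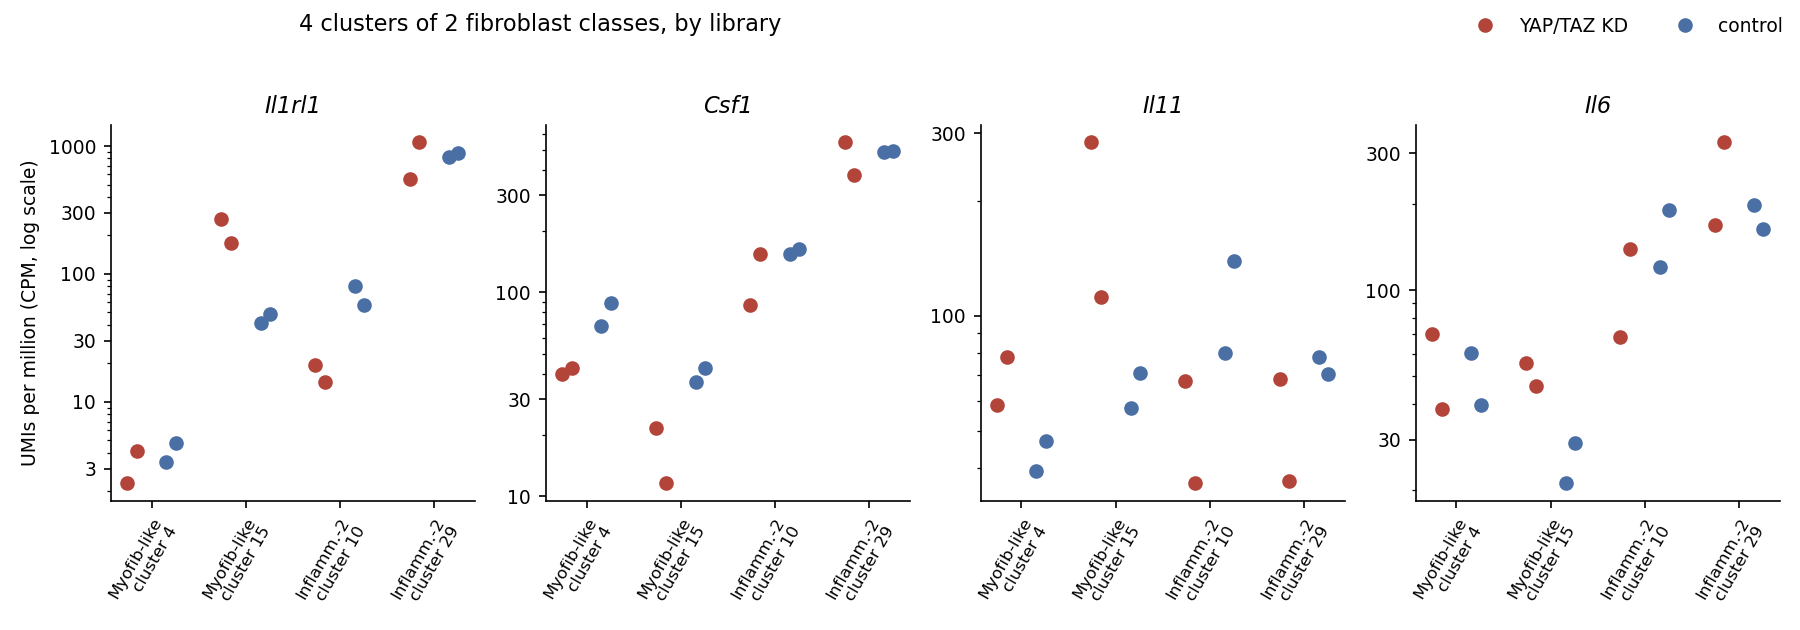
Levels of Il1rl1, Csf1, Il11 and Il6 in CPM (log scale) in clusters 4 and 15 of the Myofib-like class and clusters 10 and 29 of Inflammatory Fibroblasts-2, with 1 point per library and YAP/TAZ KD left of control. In cluster 15 the 2 YAP/TAZ KD points for Il1rl1, at 270 and 173 CPM, lie above the control points at 41.6 and 48.6 CPM, and in cluster 29 the groups overlap.

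The share of fibroblast cells with a UMI was compared after each cell had been thinned to 2000 UMIs, which kept between 92.56% and 99.12% of the fibroblast cells per library. Il33 was seen in 14.2% (95% Wilson interval 13.4 to 15.1%) and 16.1% (15.1 to 17.1%) of YAP/TAZ KD fibroblast cells and in 9.11% (8.59 to 9.66%) and 10.1% (9.58 to 10.7%) of control fibroblast cells. Lif was seen in 5.71% and 5.16% of YAP/TAZ KD and in 10.2% and 11.7% of control fibroblast cells, and Il1rl1 in 1.41% and 1.85% of YAP/TAZ KD and in 4.04% and 4.53% of control fibroblast cells. Without thinning, Il33 was seen in 30.1% and 37.9% of YAP/TAZ KD and 18.6% and 20.3% of control fibroblast cells. In epithelial cells, taken as the background for ST2, Il1rl1 was seen after thinning in 0.118% and 0.398% of YAP/TAZ KD and 0.435% and 0.667% of control cells. The order of the groups in these shares was that of the CPM values, with no overlap for any of the 8 genes in fibroblast cells at 2000 UMIs. The share of all genes without overlap was not computed. At 1000 UMIs the groups overlapped for Csf2, at 0.0134% and 0.0391% in YAP/TAZ KD and 0.0083% and 0.0175% in control. Without thinning they overlapped for Tslp. An exact permutation test of 2 against 2 libraries, two-sided, cannot go below p = 0.333, which each gene gave at 2000 UMIs. Intervals cover counting error only.

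In epithelial cells none of the 8 genes passed the test, against 1.44% of all 13952 genes tested by edgeR. At an unadjusted p under 0.05, 4 of the 8 were past by edgeR, 1 by DESeq2 and 4 by limma voom. Of all 13952 genes, 1586, 977 and 1626 were past it in these tools. Neither DESeq2 nor limma voom called any of the 8. Taken class by class, none was called in AT2 cluster 9, AT2 cluster 14, Cycling AT2 or Transitional epithelial cells either, where edgeR called 0.922%, 0.51%, 1.34% and 0.304% of all genes. Il33 was at 96.0 and 83.7 CPM in YAP/TAZ KD epithelial cells and at 61.5 and 83.6 CPM in control epithelial cells, with the lower YAP/TAZ KD and the higher control library nearly equal (log2 fold change 0.35, edgeR adjusted p = 0.510). Lif was at 16.4 and 33.3 CPM in YAP/TAZ KD and at 24.6 and 22.6 CPM in control (0.08, adjusted p = 0.919). The YAP/TAZ KD libraries lay on either side of both controls. Csf1 was at 11.6 and 13.5 CPM in YAP/TAZ KD and at 18.9 and 16.5 CPM in control (-0.47, adjusted p = 0.349).

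Csf2 was more frequent in epithelial than in fibroblast cells. Epithelial cells held 39 and 46 Csf2 UMIs in YAP/TAZ KD and 5 and 13 in control, which is 2.30 and 4.95 CPM in YAP/TAZ KD and 0.472 and 1.52 CPM in control. Both YAP/TAZ KD libraries lay above both controls, but the difference did not pass (log2 fold change 1.88 ± 0.52 SE, edgeR adjusted p = 0.115). It passed without YAP/TAZ KD replicate 1 (2.37, adjusted p = 7.3e-05) and without control replicate 2 (2.90, adjusted p = 0.00208), and not without YAP/TAZ KD replicate 2 (1.33, 0.234) or control replicate 1 (1.20, 0.886). Without the filter on low counts it passed as well (1.89, adjusted p = 0.000218). In AT2 cluster 9 there were 14 and 10 Csf2 UMIs in YAP/TAZ KD and 2 and 4 in control. Transitional epithelial cells were the 1 class in which Csf2 passed the filter, and there it was at 3.36 and 7.26 CPM in YAP/TAZ KD and 0.451 and 2.35 CPM in control (log2 fold change 2.06, adjusted p = 0.296; 0.00473 without the filter).

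Il6, Il11, Il1rl1 and Tslp were low in epithelial cells. Il6 was at 5.06 and 3.88 CPM in YAP/TAZ KD epithelial cells and at 6.04 and 7.85 CPM in control epithelial cells. Fibroblast transcripts were also found in these cells: the 8 fibroblast markers reached 9.75% and 7.27% of their fibroblast level in YAP/TAZ KD and 13.8% and 9.16% in control. At those shares Il6 from fibroblast cells would come to 4.59 and 3.69 CPM in YAP/TAZ KD and to 10.1 and 7.95 CPM in control, Il11 to 5.98 and 5.36 CPM in YAP/TAZ KD and to 10.7 and 8.28 CPM in control, and Il1rl1 to 1.49 and 1.74 CPM in YAP/TAZ KD and to 6.28 and 4.97 CPM in control. The measured Il6 levels were just above these in YAP/TAZ KD and below them in control. The measured levels were below them for Il11, at 4.59 and 3.99 CPM in YAP/TAZ KD and 6.70 and 7.26 CPM in control, and for Il1rl1, at 1.12 and 1.18 CPM in YAP/TAZ KD and 2.55 and 2.81 CPM in control. The share depends on the marker: it was between 3.42% and 26.5% for 7 of the 8 markers, while Npnt was higher in epithelial than in fibroblast cells. At the share of Pdgfra, the lowest of the 8, Il6 would come to 3.10 and 1.73 CPM in YAP/TAZ KD and to 5.23 and 4.97 CPM in control, and Il11 to 4.04 and 2.52 CPM in YAP/TAZ KD and to 5.58 and 5.18 CPM in control, below the measured levels. Il1rl1 would come to 1.01 and 0.816 CPM in YAP/TAZ KD, below the measured levels, and to 3.27 and 3.11 CPM in control, above them. The epithelial values of Il6 and Il11 lie within the range of these marker shares. Those of Il1rl1 lie within it in YAP/TAZ KD and below the Pdgfra share in control. For these 3 genes the epithelial values are not read as expression.

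For Lif and Csf1 the same shares would give 3.84 and 3.18 CPM of Lif in YAP/TAZ KD and 9.69 and 7.57 CPM in control, and 3.15 and 3.48 CPM of Csf1 in YAP/TAZ KD and 9.82 and 7.59 CPM in control, all below the measured epithelial levels. As a share of its fibroblast level, epithelial Lif was at 41.5% and 76.2% in YAP/TAZ KD and 34.95% and 27.3% in control. Csf1 was at 35.9% and 28.2% in YAP/TAZ KD and 26.4% and 19.9% in control. In control replicate 2 the Csf1 share lay below that of the marker Tcf21, 26.5%. Tslp was at 1.00 and 1.62 CPM in YAP/TAZ KD epithelial cells and at 1.42 and 1.52 CPM in control epithelial cells, or 17 and 15 UMIs in YAP/TAZ KD and 15 and 13 in control. Of the deposited AT2 class, cluster 19 reached 70.9% and cluster 23 reached 62.7% of the marker sum of the Fibroblasts class, and both were left out of the epithelial sum. Their median doublet enrichment, a ratio the authors deposited from the chromatin profile, was 2.29 and 2.38, against at most 0.8 in every other cluster. With them kept, Il6, Il11, Il1rl1 and Csf1 passed as lower in YAP/TAZ KD (log2 fold changes -1.58, -1.45, -2.80 and -0.83), against 5.1% of all genes tested. Fold changes in fibroblast cells differed from those in epithelial cells for 3.55% of 17188 genes and for none of the 8 by edgeR, DESeq2 or limma voom, while 3, 1 and 3 of the 8 were past an unadjusted p of 0.05 in these tools. Of all 17188 genes, 2660, 1224 and 2784 were past that unadjusted p in these tools. Without the filter on low counts Lif, Il33 and Csf1 passed. The difference for Lif was -0.89 ± 0.24 SE (adjusted p = 0.0781).

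Among the receptors of these ligands in fibroblast cells, 1 of the 6 IL-6 family chains rose and 1 fell, where 4.42% of all genes rose and 6.22% fell. Cntfr, the ciliary neurotrophic factor receptor, was at 9.60 and 8.67 CPM in YAP/TAZ KD and 5.40 and 6.53 CPM in control (log2 fold change 0.66, edgeR adjusted p = 0.0374). Lifr, the receptor chain for LIF, was at 25.4 and 24.7 CPM in YAP/TAZ KD and 37.2 and 41.9 CPM in control (-0.61, adjusted p = 0.0178). The shared chain Il6st was at 215 and 224 CPM in YAP/TAZ KD and 253 and 285 CPM in control (-0.25, adjusted p = 0.268). Il6ra, the IL-6 receptor chain, was at 28.1 and 25.2 CPM in YAP/TAZ KD and 43.0 and 31.3 CPM in control with a log2 fold change of -0.43 (adjusted p = 0.119), and that of Il11ra1, the IL-11 receptor chain, was 0.16 (0.434). Of 7 alarmin and IL-1 receptors tested, 2 fell and none rose: beside Il1rl1 this was Il1rap, the chain that ST2 shares with the IL-1 receptor, at 21.3 and 22.9 CPM in YAP/TAZ KD and 37.3 and 39.4 CPM in control (-0.75, adjusted p = 0.00600). DESeq2 and limma voom also called Il1r1 in this list. Crlf2, the TSLP receptor, was at 20.9 and 25.7 CPM in YAP/TAZ KD and 16.5 and 26.1 CPM in control, with overlap. Of 5 colony-stimulating factor receptors, 1 rose, Csf2ra, at 14.7 and 14.0 CPM in YAP/TAZ KD and 9.31 and 8.98 CPM in control (0.70, adjusted p = 0.0114). Csf1r, the CSF1 receptor, was at 2.36 and 2.32 CPM in YAP/TAZ KD and 3.03 and 3.37 CPM in control (-0.41, adjusted p = 0.174). The calls of Cntfr (adjusted p = 0.137) and Csf2ra (0.0510) were lost without YAP/TAZ KD replicate 1, that of Cntfr also without control replicate 1 (0.0579), and that of Lifr without YAP/TAZ KD replicate 2 (0.0976). With equal class weights Cntfr did not pass (0.230), and with equal cluster weights none of Il1rap (0.159), Lifr (0.0640), Csf2ra (0.0783) and Cntfr (0.778) passed.

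In epithelial cells none of these receptors passed by edgeR, DESeq2 or limma voom. At an unadjusted p under 0.05, edgeR held 0 of 6 IL-6 family chains, 3 of 6 alarmin and IL-1 receptors and 0 of 2 colony-stimulating factor receptors, where DESeq2 held 0 in each and limma voom 0, 3 and 0. Of all 13952 genes, 1586 were past that unadjusted p by edgeR, 977 by DESeq2 and 1626 by limma voom. Epithelial Il6st was at 68.1 and 69.0 CPM in YAP/TAZ KD and 79.1 and 80.7 CPM in control. Lifr was at 28.4 and 21.7 CPM in YAP/TAZ KD and 20.5 and 24.1 CPM in control epithelial cells, with overlap. Its fold change in fibroblast cells was lower by 0.87 ± 0.14 SE on the log2 scale than that in epithelial cells (edgeR adjusted p = 0.00766; 0.0541 with DESeq2, 0.122 without YAP/TAZ KD replicate 1 and 0.0509 without control replicate 1). Crlf2 was at 15.3 and 22.7 CPM in YAP/TAZ KD and 14.0 and 20.6 CPM in control, and Csf2ra at 13.1 and 13.2 CPM in YAP/TAZ KD and 11.1 and 10.2 CPM in control.

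Among the related ligands in fibroblast cells, 2 of 8 IL-6 family ligands tested fell, which were Il6 and Lif themselves, and none rose, against 10.6% of all genes called; the list median was -0.17. Of 5 IL-1 family and alarmin genes, Il33 rose and Tslp and Il1rn fell. Il1rn, the IL-1 receptor antagonist, was at 2.82 and 2.92 CPM in YAP/TAZ KD and 6.98 and 7.66 CPM in control (log2 fold change -1.31, edgeR adjusted p = 0.00302). Of 4 colony-stimulating factors tested, Csf2 and Il34 rose and Csf1 fell; Il34, the second ligand of the CSF1 receptor, was at 8.02 and 9.17 CPM in YAP/TAZ KD and 5.75 and 6.44 CPM in control (0.54, adjusted p = 0.0494). Il34 did not pass with DESeq2 (0.0603), with limma voom (0.0502), with equal class weights (0.0902), or without YAP/TAZ KD replicate 1 (0.0884), YAP/TAZ KD replicate 2 (0.213) or control replicate 1 (0.128). In epithelial cells none of the ligands passed by edgeR, DESeq2 or limma voom. Past an unadjusted p of 0.05 were 2 of 8 IL-6 family ligands, 1 of 5 IL-1 family and alarmin genes and 2 of 3 colony-stimulating factors by edgeR, the same numbers by limma voom, and 1 in each list by DESeq2. Of all 13952 genes, 1586 were past it by edgeR, 1626 by limma voom and 977 by DESeq2.

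Of 21 JAK-STAT signalling genes and targets in fibroblast cells, 1 rose and 2 fell, against 10.6% of all genes called, with a list median of 0.01, the same as that of all genes tested. Cebpb, a transcription factor gene that answers to IL-6, was at 269.9 and 607.5 CPM in YAP/TAZ KD and 84.1 and 59.9 CPM in control (log2 fold change 2.64, edgeR adjusted p = 0.00455; 3.09 without YAP/TAZ KD replicate 1 and 1.99 without YAP/TAZ KD replicate 2). Jak2, a kinase of the pathway (-0.50, adjusted p = 0.0230), and the metallothionein gene Mt2 (-0.59, adjusted p = 0.0270) fell, and Socs3, the feedback inhibitor, had a log2 fold change of 0.18 (0.483). Jak2 was not called without YAP/TAZ KD replicate 1 (0.110) or 2 (0.153) or with equal class weights (0.124), nor was Mt2 (0.134, 0.125 and 0.0924). Mt2 was at 179 and 194 CPM in YAP/TAZ KD fibroblast cells and 282 and 294 CPM in control fibroblast cells, against 160 and 178 CPM in YAP/TAZ KD and 173 and 175 CPM in control epithelial cells, a fold change lower in fibroblast cells by 0.61 ± 0.11 SE (edgeR adjusted p = 0.00981; between 0.0721 and 0.105 without YAP/TAZ KD replicate 1 or either control library). Hp and Saa3, genes of acute-phase proteins, also differed between compartments while passing in neither. Hp was at 164 and 169.5 CPM in YAP/TAZ KD and 162 and 288 CPM in control fibroblast cells, and at 244 and 376 CPM in YAP/TAZ KD and 194 and 275 CPM in control epithelial cells, a difference of -0.79 ± 0.18 SE (edgeR adjusted p = 0.0366). That of Hp was not called with DESeq2 (0.0765), without YAP/TAZ KD replicate 2 (0.0534) or without control replicate 2 (0.130). Saa3 was at 149.8 and 142 CPM in YAP/TAZ KD and 80.1 and 189.5 CPM in control fibroblast cells, and at 16.8 and 11.6 CPM in YAP/TAZ KD and 13.8 and 38.5 CPM in control epithelial cells, a difference of 0.91 ± 0.16 SE (edgeR adjusted p = 0.0102; 0.0632 without control replicate 2). For both genes the groups overlapped in each compartment. Limma voom also called Il4ra and Timp1 in this test. Of 15 NF-kB signalling genes and targets none passed by edgeR, with a list median of -0.08 and 2 genes past an unadjusted p of 0.05; DESeq2 called Nfkb1 and Rel, and limma voom called none with 3 past the unadjusted p. Of all 17481 genes tested in fibroblast cells, 4975 were past the unadjusted p by edgeR and 4973 by limma voom. In epithelial cells the 3 tools called none of the 15, with none past the unadjusted p. In epithelial cells Cebpb was at 82.9 and 184 CPM in YAP/TAZ KD and 26.6 and 17.8 CPM in control (2.60, adjusted p = 0.000349; 3.05 without YAP/TAZ KD replicate 1 and 1.96 without YAP/TAZ KD replicate 2), and Timp1, an inhibitor of matrix proteases, was at 124 and 127 CPM in YAP/TAZ KD and 299 and 281 CPM in control (-1.17, adjusted p = 0.00273). None of the other 19 genes of the JAK-STAT list passed in epithelial cells by edgeR, with 2 of them past an unadjusted p of 0.05, or by DESeq2 or limma voom, with 0 and 2 past it. Of all 13952 genes, 1586, 977 and 1626 were past it in these tools.

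Likeness of profile was measured as the Pearson correlation of log2(CPM + 1) over 48 sums, 12 classes in each of the 4 libraries, among 11126 genes; sums of 1 library share its depth and its cells, so the values are descriptions. Il6 was closest to Rgs7bp (0.931), Cyp1b1 (0.930) and March3 (0.929), and correlated at 0.907 with Il11. Il11 was closest to Dio2 (0.942), Plod2 and March3, and Lif to Dlgap1, Glipr2 and Abcc1. Csf1 was closest to Map4k4 (0.909), Hmga2 (0.904) and Ccl2 (0.894), the gene of a monocyte attractant, and correlated at 0.856 with Lif. Il1rl1 was closest to Wt1 (0.826), Dio3 (0.822) and Ptx3 (0.803). Il33 was closest to P4hb (0.839), Snhg11 (0.821) and Entpd5 (0.818), Tslp to Mdga1 (0.761), Rcl1 (0.754) and Atp2b4 (0.751), and Csf2, with few UMIs, to Bri3 (0.709), 1110008P14Rik (0.702) and Gpx1 (0.700).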

How the data were processed

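The authors deposited a matrix of raw UMI counts per gene and cell and a table of cell annotations, from which the class and cluster of each cell were used. Per the labels, polyA RNA was read with a 10x multiome kit. Per the submitters' processing notes the genome build was GRCm38 (mm10). For the aligner, the annotation and the treatment of intronic reads, nothing is stated by the labels. The matrix sums equalled the deposited UMIs in 45936 of 45936 cells. The mitochondrial percent per cell and the doublet enrichment ratio of the chromatin profile, both deposited by the authors per the file headers, were used as descriptions and not as filters, and 53 other columns were left aside. No doublet caller was run.

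Counts were summed per library and class. Classes with at least 50 cells in every library were tested, with AT2 clusters tested apart, and epithelial clusters with fibroblast markers above 25% of the fibroblast level were left out. edgeR 4.0.16 in R 4.3.3 (quasi-likelihood test, TMM, filterByExpr, no covariate) was fitted over all genes, with Benjamini-Hochberg adjustment and a threshold of 0.05; fold changes are YAP/TAZ KD over control. Differences between fold changes were tested as interactions with library as a block. DESeq2 1.42.0, limma voom 3.58.1, other filters and scalings, a replicate block, equal class weights and leaving out each library were alternatives. Fits were tested on simulated data; called changes had the right sign, and the share of false calls was above the threshold in the fibroblast sum, the Fibroblasts class and most of all in the interaction fit. Every gene of the family, genes of related lists called by edgeR, member receptors and the 3 nearest profiles were named. The genes and lists were chosen with earlier results of these data known. The tests of Myofib-like cells against others and the cluster alternatives were chosen after seeing the data. Sequences are from RefSeq.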

Additional observations from a re-analysis of the deposited data

Results flagged for a closer look

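The fold changes of Il6, Il11 and Il1rl1 between YAP/TAZ KD and control differed between Myofib-like cells and the rest of the fibroblasts. The test of the difference of the 2 fold changes was chosen after the class values had been seen. Against the Fibroblasts class, the fold change in Myofib-like cells was more positive by 1.26 ± 0.20 SE on the log2 scale for Il6 (edgeR adjusted p = 0.000527), by 0.91 ± 0.22 SE for Il11 (adjusted p = 0.0167) and by 1.57 ± 0.30 SE for Il1rl1 (adjusted p = 0.00327), where 4.64% of all genes differed. Against all other fibroblast cells the difference was 1.37 for Il6, 1.23 for Il11 and 2.17 for Il1rl1, where 6.37% of all genes differed.

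The differences from the Fibroblasts class were smaller without YAP/TAZ KD replicate 1, and those of Il11 and Il1rl1 were no longer called. Without it, the difference from the Fibroblasts class was 0.77 for Il6 (edgeR adjusted p = 0.00171), 0.36 for Il11 (0.146) and 0.56 for Il1rl1 (0.245). With DESeq2, the difference from the Fibroblasts class was called for Il6 (adjusted p = 0.00357) and not for Il11 (1.00) or Il1rl1 (0.992), and the difference from all other fibroblast cells was called for Il11 and not for Il6 (0.199) or Il1rl1 (0.675). Cluster 15 held 12.59% of the Myofib-like cells in YAP/TAZ KD and 42.21% in control. Cluster 5 held 65.38% of the Fibroblasts class in YAP/TAZ KD and 0.98% in control. All other fibroblast cells include the Wnt4+, Tgfbi+ and inflammatory classes, whose shares also differed between the groups. The part of these shares in the differences was not tested.

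The YAP/TAZ KD effect on Lifr, Mt2, Hp and Saa3 differed between the compartments, by an interaction test that was passed by 3.55% of all genes: the log2 fold change in fibroblast cells minus that in epithelial cells was -0.87 for Lifr (edgeR adjusted p = 0.00766), -0.61 for Mt2 (adjusted p = 0.00981), -0.79 for Hp (adjusted p = 0.0366) and 0.91 for Saa3 (adjusted p = 0.0102). None of these 4 calls held in every fit that left out 1 library, as given above.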

How the results depend on the processing

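Of the 8 genes in the fibroblast sum, 7 passed; 2 passed with equal class weights, 1 with equal cluster weights, 4 in the classes with 50 cells in every library summed without weights, and between 3 and 7 when 1 library was left out. Genes called in the fibroblast sum numbered 1860; there were 1001 with equal class weights, 426 with equal cluster weights, 5820 with a replicate block, and between 998 and 3666 without 1 library. Epithelial calls numbered 201; there were 780 with the mixed clusters kept, 528 without a filter, 329 with a replicate block, 111 with equal class weights, and between 136 and 684 without 1 library. Differences between compartments numbered 610; there were 284 with DESeq2, 1303 without a filter, and between 249 and 975 without 1 library. Calls over the 12 classes numbered 4483; there were 2445 with DESeq2, 13295 with a replicate block, and between 2810 and 7486 without 1 library. The cause of these shifts was not tested. The replicate numbers are shared by name only: with 2 pairs, replicate deviations correlated at 0.102 in the fibroblast and 0.0706 in the epithelial sum. Without the filter, 8 of the 16 class calls of the 8 genes were lost, in the Fibroblasts class, Myofib-like cells and Cycling Fibroblasts. Under the replicate block Il11 in fibroblast cells and Csf2 in epithelial cells passed in addition.

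Directions that turned were Il11 in the fibroblast sum (0.05 with equal cluster weights), Lif in the epithelial sum (-0.04 with a gene length offset, -0.01 with limma voom, -0.38 with the mixed clusters kept, -0.46 without YAP/TAZ KD replicate 2) and Tslp there (0.14 without YAP/TAZ KD replicate 1). In the difference between compartments they were Il6 (0.25) and Il1rl1 (0.19) without YAP/TAZ KD replicate 1, and Csf2 (0.03 with a gene length offset, 0.88 without control replicate 1, 0.11 without YAP/TAZ KD replicate 2). In that difference Lif passed without YAP/TAZ KD replicate 1 or control replicate 1, Il33 without YAP/TAZ KD replicate 1 and Csf1 without YAP/TAZ KD replicate 2. Without 1 library, these 5 results ranged from -0.46 to 0.49 (Lif) and -0.48 to 0.14 (Tslp) in the epithelial sum, and from -0.33 to 0.25 (Il6), -0.47 to 0.19 (Il1rl1) and -1.30 to 0.88 (Csf2) in the difference. The counts of UMIs limit Csf2 and Tslp most.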
